A study of Mus musculus with 6 samples.

Results

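The table deposited for this study lists 24 transcripts of 20 zinc finger genes among 1037 transcripts of 847 named genes. Members were all listed transcripts whose mouse gene symbol starts with Zfp, Zbtb, Zkscan, Zscan, Zfx, Zmym, Zmynd or Zhx. The RefSeq gene table holds 509 genes with such symbols. The listed ones comprise 14 Zfp genes, 2 Zkscan genes, 2 Zmym genes, Zbtb37 and Zmynd11. No Zscan, Zfx or Zhx transcript was listed.

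The samples were primary CD8+ T cells of wildtype mice, taken from spleen and cultured in serum-containing medium. The control group of 3 samples received DMSO, the solvent, and the other group of 3 samples received daunorubicin (DNR), an anthracycline drug that inserts between DNA bases and traps topoisomerase II on DNA, in both cases for 2 h and at doses the labels do not give. The labels name biological replicates and do not tie them to separate mice, so p-values measure the spread between these samples, which may be technical. Values are FPKM per transcript, that is fragments scaled to transcript length and library size, and depth is unknown because read totals were not used here. How transcripts were chosen for the table is not given in the sources used here. Its name refers to a heat map of these groups, and 99.7% of the transcripts tested below passed the test, so the table was probably assembled for a difference between these same samples. The values below therefore describe listed transcripts and cannot serve as separate support for a group difference. None of 9 fixed CD8 T cell markers was listed, so the cell label could not be checked with them. Of 8 fixed markers of myeloid cells Csf1r was listed, at 58.45 to 79.11 FPKM over the 6 samples. Whether other cells were present was not tested.

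Zinc fingers are small protein folds held together by a zinc ion. In the C2H2 type, a pair of cysteines and a pair of histidines bind the zinc, and tandem arrays of such fingers read DNA. Many Zfp proteins carry a KRAB domain that recruits the Trim28 silencing complex, Zbtb proteins carry a BTB domain for dimerisation and corepressor binding, and Zkscan proteins carry a SCAN domain. MYM and MYND fingers serve mainly in protein contacts. Members of the Zbtb family are known for their part in T cell lineage choice.

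Among the members the highest level was that of Zfp655 (chromosome 5, 145231595 to 145247306), a C2H2 gene with 2 listed transcripts that went in opposite directions. They differ mainly by 1 exon of 86 bases (GRCm38, chr5:145235306-145235391, plus strand), present in NM_001363451 and absent from NM_028298. The exon structures come from the GENCODE M21 transcripts paired with these accessions. The extra exon is shown first because it is the feature that separates the transcripts. The next exon, present in both (chr5:145242920-145243024), follows with the stop codon that is in frame after the extra exon in capitals. Last comes the first C2H2 repeat of NM_028298 (chr5:145244066-145244128), with its cysteine and histidine codons in capitals.
Extra exon of NM_001363451: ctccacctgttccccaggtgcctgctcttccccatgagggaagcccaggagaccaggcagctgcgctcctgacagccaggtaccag
Next exon, read in the frame of NM_001363451: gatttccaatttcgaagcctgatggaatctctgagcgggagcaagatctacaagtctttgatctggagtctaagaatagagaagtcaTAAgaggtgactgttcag
First finger in NM_028298: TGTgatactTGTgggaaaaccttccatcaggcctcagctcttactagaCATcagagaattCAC

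The 86 bases are not a multiple of 3, and the annotated coding sequence of NM_001363451 ends at the TAA at 145243007 to 145243009 after 103 codons. That of NM_028298 runs for 541 codons and holds 6 C2H2 repeats, the first of which starts at codon 245, in the last exon. The reading frames share their first 45 codons, and that of NM_001363451 holds 0 repeats. A repeat was counted where cysteines and histidines had the C2H2 spacing in the translated coding sequence.

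NM_028298, the form with fingers, measured 14.15, 14.78 and 15.80 FPKM under DMSO, against 10.75, 9.96 and 12.34 FPKM under DNR. Every DNR sample was below every DMSO sample. The mean fell from 14.9 ± 0.83 to 11.0 ± 1.21 FPKM (SD over 3 samples), a change of -0.41 ± 0.09 on the log2(FPKM + 1) scale (SE; limma, adjusted p = 0.0054). NM_001363451 measured 2.58, 2.43 and 1.30 FPKM under DMSO, against 5.01, 6.83 and 3.87 FPKM under DNR. All DNR samples were above all DMSO samples. The mean rose 2.49-fold from 2.10 ± 0.70 to 5.24 ± 1.49 FPKM, a log2 change of 1.01 ± 0.24 (limma, adjusted p = 0.0059).

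Added together, the listed Zfp655 transcripts came to 16.73, 17.21 and 17.10 FPKM under DMSO, against 15.76, 16.79 and 16.21 FPKM under DNR. The groups came close to each other, at means of 17.0 ± 0.25 and 16.3 ± 0.52 FPKM (SD, n = 3), and their difference did not pass the test (log2 change -0.06 ± 0.05; limma on gene sums, adjusted p = 0.26). The mean of NM_028298 fell by 3.89 FPKM while that of NM_001363451 rose by 3.13 FPKM. As a share of the pair, NM_001363451 made up 15.4%, 14.1% and 7.60% in DMSO and 31.8%, 40.7% and 23.9% in DNR. The shares did not overlap, at means of 12.4% ± 4.19 and 32.1% ± 8.41 (two-sided exact permutation test, p = 0.10, the smallest value that 3 against 3 samples can give). Since the transcripts went opposite ways without overlap, their shares had to separate. The p-value was thus fixed in advance and adds no support. Of the pair, the form with fingers was the more abundant in all 6 samples. RefSeq has 8 transcripts of Zfp655 and 2 of them were listed, so the sum is not the level of the gene.

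The transcripts share 4071 exonic bases, with 86 found only in NM_001363451 and 33 only in NM_028298. Most reads on the gene therefore cannot tell them apart, and the split rests on reads that touch the differing bases or junctions. With all samples brought to one median, NM_028298 changed by -0.22 and did not pass (limma, adjusted p = 0.060). That shift raises DNR by 0.18 against DMSO on the log2 scale, and it takes the whole table from 43.2% of calls higher and 56.8% lower to 61.2% and 38.8%.

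**Figure D1:**
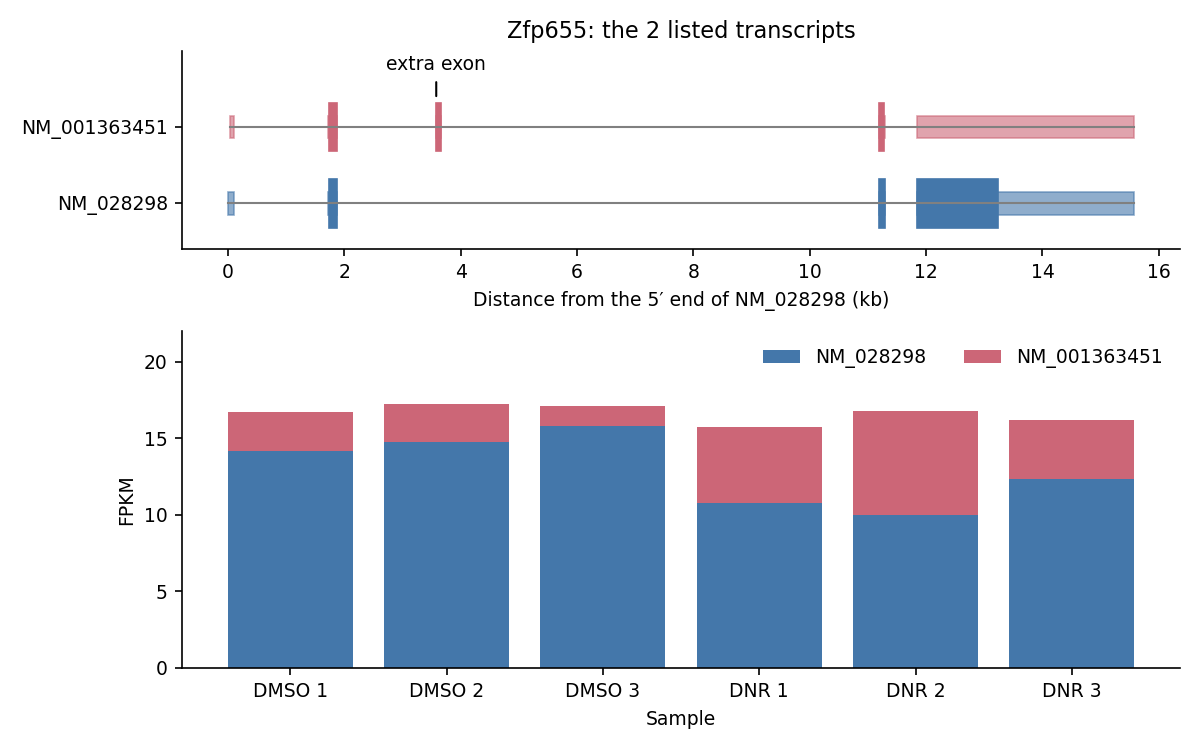
Top: exons of the listed Zfp655 transcripts, drawn to scale along the gene in kb from the 5′ end of NM_028298, with tall boxes for coding and low boxes for non-coding sequence. The last exon is coding in NM_028298 alone. Bottom: stacked bars of FPKM in each sample, where bar heights lie between 15.76 and 17.21 FPKM while the upper segment, NM_001363451, is larger in each DNR sample than in any DMSO sample.

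Only 4 of the 24 member transcripts, of 3 genes, had 1 FPKM or more in 3 or more samples, the condition for the test. Of these, 3 fell and 1 rose, and 1 of the 3, Zfp839, had to differ to enter the test. Of all tested transcripts, 56.7% fell and 43% rose, so passing says nothing particular of these members. The median change of the 4 was -0.55, against -0.22 over all 388 tested transcripts. The 4 include Zfp839 and 2 transcripts of Zfp655 that went opposite ways, so nothing particular to the members is read from this median. On gene sums 2 of 3 genes fell, 0 rose and Zfp655 did not pass, against 51.5% lower and 39.3% higher among all 361 sums tested. The 2 that fell, Zmynd11 and Zfp839, have 1 listed transcript each. Their sums repeat the transcript values and are not a further result, and Zfp839 again had to differ to enter the test.

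Zmynd11 (chromosome 13, 9684836 to 9766014) encodes a chromatin reader of histone H3.3 trimethylated at lysine 36 that restrains transcription elongation. Its NM_001347470 transcript measured 4.86, 4.38 and 4.78 FPKM under DMSO, against 3.43, 2.04 and 2.19 FPKM under DNR. DNR replicate 1 was the highest of its group and still lay below every DMSO sample. The transcript fell from 4.67 ± 0.26 to 2.55 ± 0.76 FPKM (SD over 3 samples), a log2 change of -0.69 ± 0.17 (limma, adjusted p = 0.0061). RefSeq has 27 transcripts of Zmynd11 and 1 of them was listed, so this is not the level of the gene.

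Zfp839 (chromosome 12, 110850251 to 110870006) had 1 listed transcript, the predicted XM_006516272. It measured 1.49, 2.08 and 1.04 FPKM under DMSO, against 0, 0 and 0.12 FPKM under DNR. It changed by -1.27 ± 0.16 on the log2(FPKM + 1) scale, and by -3.60 with a pseudocount of 0.1. The transcript passed the filter through the DMSO samples alone, so it had to differ to enter the test, and no p-value is given.

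**Figure D2:**
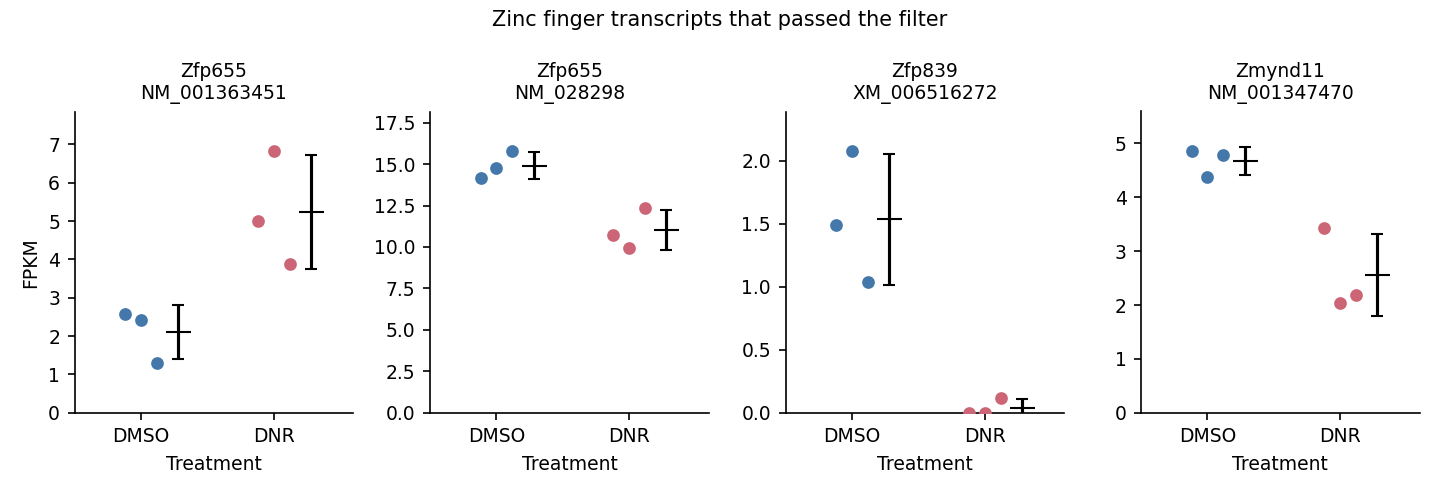
FPKM of the 4 tested zinc finger transcripts in each sample (points, 3 per treatment), with the mean and SD beside them; each panel has its own axis from 0. NM_001363451 of Zfp655 is the one panel in which DNR points lie above DMSO points.

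**Figure D3:**
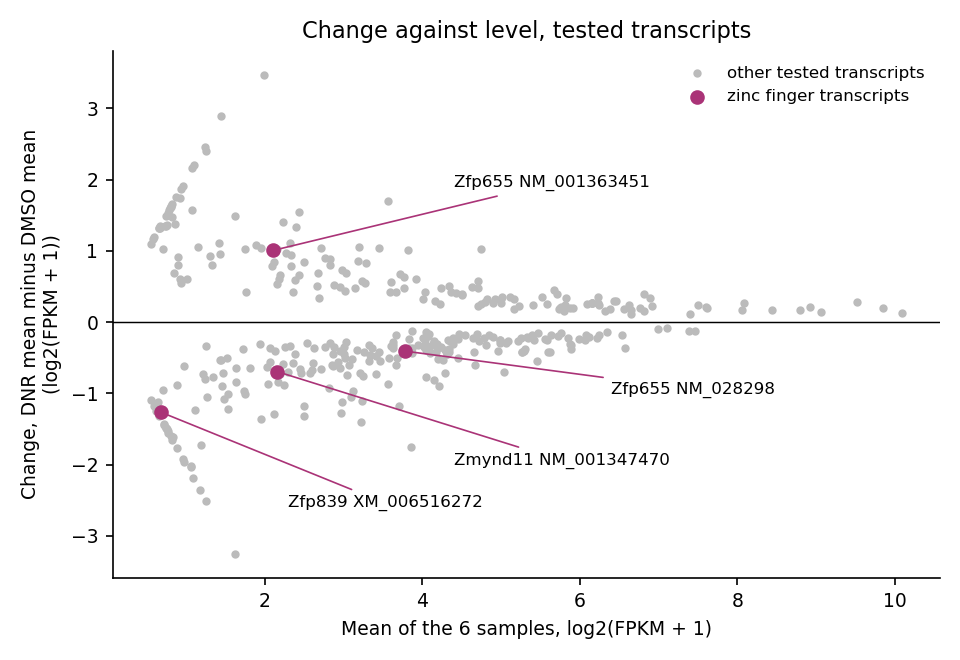
Change (DNR mean minus DMSO mean) against the mean level of the 6 samples, both on the log2(FPKM + 1) scale, for the 388 tested transcripts. The 4 zinc finger transcripts, named and in purple, lie among the grey points of other transcripts at like levels, from -1.27 for Zfp839 to 1.01 for Zfp655 NM_001363451.

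The other 20 transcripts, of the remaining 17 genes, were below the filter and are described by their values. Among all 24, 5 were higher and 6 lower in DNR without overlap between groups. Of all 1037 listed transcripts, 27.7% were higher and 34.9% lower without overlap. The members, at 20.8% and 25%, did not exceed this background in either direction.

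Of the lower ones outside the test, the Zkscan3 transcript XM_006516790 (chromosome 13, 21387004 to 21402755) measured 2.86, 2.89 and 0.74 FPKM under DMSO, and every DNR sample listed it at 0. Zkscan3 encodes a SCAN domain factor known as a repressor of autophagy genes. The Zfp451 transcript NM_001359274, of a gene whose product is a SUMO ligase, measured 0.81, 2.01 and 0.65 FPKM under DMSO and was likewise listed at 0 under DNR. In both, 1 DMSO sample or more lay below 1 FPKM, close to the DNR values of 0. Zbtb37, the one BTB gene of the table's members, was above 0 throughout, with 0.95, 1.39 and 1.89 FPKM under DMSO against 0.57, 0.77 and 0.55 FPKM under DNR. Its means were 1.41 ± 0.47 and 0.63 ± 0.12 FPKM (SD, n = 3).

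The other direction held 4 transcripts that were listed at 0 in every DMSO sample. Zfp810 XM_011242473 (chromosome 9, 22276737 to 22307814) was at 0.74, 0.95 and 0.75 FPKM in DNR. Zfp653 XM_006510407 (chromosome 9, 22055411 to 22071395) was at 0.62, 0.42 and 0.70 FPKM. These genes have 205.3 kb between them, and other genes in that stretch were not looked for. On chromosome 13, 110.5 kb lie between Zkscan3, at 0 in every DNR sample, and Zkscan8, above 0 in DNR replicate 2 alone. A link between distance and direction was not tested. Zmym3 XM_006528163, of a MYM finger gene, was at 0.48, 1.07 and 0.37 FPKM in DNR, and Zfp518a XM_030251088 at 0.50, 0.27 and 0.22 FPKM. At these levels a listed 0 may reflect a failed estimate, and no fold change is given.

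Without the filter on low values, limma called 10 of the 24 members, 4 higher and 6 lower, against 23.3% higher and 31.2% lower of all 1037 transcripts. The added calls were Zbtb37 and 5 transcripts listed at 0 throughout a group, of Zfp810, Zfp653, Zmym3, Zkscan3 and Zfp451. A test against listed zeros, in a table probably assembled for a difference, adds nothing to the values above.

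The remaining members were seen in a single sample or little more. In total, 12 of the 24 member transcripts (50.0%) were above 0 in a single sample, against 326 of the 1037 (31.4%) in the table, and only 4 members (16.7%) were above 0 in all 6 samples, against 33.5%. Of the 12, 5 appeared in a DMSO sample and 7 in a DNR sample, against 148 and 178 of the 326 in the table. Of the 7, 4 appeared in DNR replicate 2, and the share of that sample over the table was not taken. These 4 were transcripts of Zkscan8 at 1.47 FPKM, Zfp148 and Zfp646 at 1.43 FPKM each, and Zfp687 at 1.01 FPKM. Zfp148 encodes the GC-box binding factor ZBP-89. The single-sample values ranged from 0.62 FPKM for another Zfp687 transcript in DNR replicate 1 to 4.50 FPKM for Zfp740 NM_001289694 in DMSO replicate 2.

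Zfp740 showed this alternation within 1 gene. Its NM_001289694 was above 0 in DMSO replicate 2 alone, and its XM_017316741 in DNR replicate 3 alone, at 2.92 FPKM, while both were listed at 0 in the other samples. For Zfp687, 1 transcript appeared in DNR replicate 1 and another in DNR replicate 2. For Zfp810, a second transcript, XM_011242472, measured 1.98, 0.01 and 0 FPKM under DNR and was listed at 0 under DMSO. Summed, the listed Zfp810 transcripts were at 2.72, 0.96 and 0.75 FPKM in DNR. The rest of the single-sample group were Zfp790 at 1.57 FPKM in DMSO replicate 1, Zfp384 at 1.68 FPKM in DMSO replicate 2, Zfp638 at 0.86 and Zfp831 at 1.00 FPKM in DMSO replicate 3, and Zmym2 at 1.01 FPKM in DNR replicate 1.

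**Figure D4:**
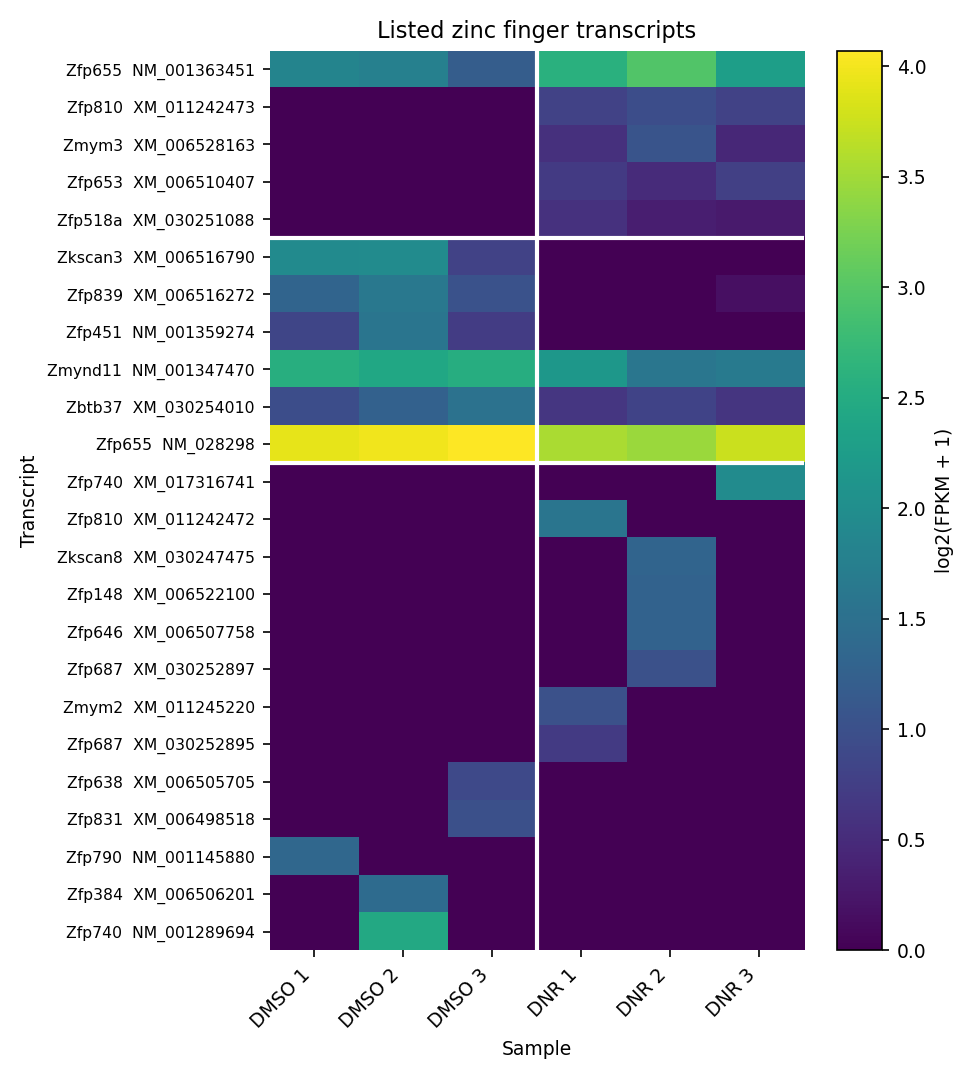
Heat map of log2(FPKM + 1) for the 24 listed zinc finger transcripts (rows) in the 6 samples (columns). White lines separate the 5 transcripts higher in DNR without overlap, the 6 lower without overlap and the 13 whose groups overlap; most of the last block is above 0 in a single sample.

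Across samples, the listed zinc finger transcripts summed to 29.27, 36.14 and 28.06 FPKM in DMSO and to 25.71, 27.66 and 24.03 FPKM in DNR. The highest sum, of DMSO replicate 2, includes the 4.50 FPKM of the Zfp740 transcript. They made up 0.167% to 0.266% of the listed FPKM in a sample, and Zfp655 alone held more than the other 19 genes together in every sample but DMSO replicate 2. In bulk RNA, fewer cells of a type and less RNA per cell cannot be told apart.

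Among properties that the choice of members did not use, 18 of the 24 transcripts (75.0%) carry accessions of predicted models, against 62.3% of the table. The 20 genes have 238 RefSeq transcripts in all, of which the 24 listed ones are 10.1%. The genes lie on 14 chromosomes. Their median span was 22.6 kb, from 9.08 kb for Zfp646 to 123.1 kb for Zfp148, against 49.5 kb over all listed genes. In the longest annotated coding sequence, 16 of the 20 genes held at least 1 C2H2 repeat, from 2 in Zfp638, Zfp740 and Zfp831 to 27 in Zfp646. The pattern was not found in Zmym2, Zmym3, Zmynd11 and Zfp839, the first 3 of which are named for other finger types. Of the transcripts with a paired GENCODE structure, Zfp740 NM_001289694 has a coding sequence of 144 codons with 0 repeats and Zfp790 NM_001145880 one of 779 codons with 12.

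Partners of these proteins were few in the table. Of 25 fixed genes of KRAB-dependent silencing, 4 were listed and 2 tested. A transcript of the remodeller gene Chd4 measured 0, 0.17 and 0 FPKM under DMSO against 1.69, 1.21 and 2.26 FPKM under DNR, and 1 of Atf7ip, a partner of the methyltransferase Setdb1, fell by 0.32 on the log2 scale (limma, adjusted p = 0.012; 0.28 after the shift to one median and 0.25 with quantile normalization). Of 27 fixed genes of BTB corepressor complexes, 7 were listed and 2 tested. A transcript of the deacetylase gene Hdac5 rose by 0.84 on the log2 scale (limma, adjusted p = 0.0037). A transcript of the corepressor gene Ncor1 measured 0.71, 0.53 and 0.38 FPKM under DMSO against 1.19, 1.72 and 1.16 FPKM under DNR. The transcripts of Chd4 and Ncor1 passed the filter through the DNR samples alone, so they had to differ to enter the test. Of all tested transcripts 43% rose and 56.7% fell, and nothing particular to either list is read from these counts.

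Of 79 other C2H2 factor genes, 13 were listed and 8 transcripts of 7 genes tested, of which 4 rose and 4 fell, at a median change of -0.05, against -0.22 over all tested transcripts. A transcript of Ikzf1, a lymphoid factor, and those of Klf2 and Klf6 rose by 1.08, 0.21 and 0.16 on the log2 scale, while Klf3 and both identical entries of Egr2 changed by -0.41 and -0.26. After the shift to one median 4 passed as higher and 0 as lower, against 167 and 106 of all 388 tested transcripts. Quantile normalization left 2 higher and 3 lower, against 149 and 170 of the 388. Klf2 and Klf6 then stood at 0.01 and -0.06 and did not pass. Of 70 genes for other zinc-binding proteins, 8 were listed and 4 tested. All 4 fell, as did 56.7% of all tested transcripts, Zswim6, Zzz3, Zmiz2 and Zdhhc18 by 0.51, 0.58, 0.32 and 0.15 (limma, adjusted p = 0.0049, 0.0075, 0.0084 and 0.0054), at a median of -0.42. After the shift to one median 2 of these 4 were lower, and Zdhhc18 stood at 0.04, while with quantile normalization 3 were lower. Of all 388 tested transcripts, 106 and 170 were lower under these scalings. The lists were made with earlier results of these data known. Of 8 fixed markers of myeloid cells only Csf1r was listed, at 58.45 to 63.23 FPKM in DMSO and 69.62 to 79.11 FPKM in DNR. Of the dendritic cell and B cell markers, Itgax (5 fixed) and Spib and Ebf1 (8 fixed) were listed, with sums up to 1.51 and 5.97 FPKM in a sample. The part of these cells in the zinc finger values was not tested.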

How the data were processed

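RNA-seq libraries of 3 DMSO and 3 DNR samples were prepared with a SMARTER mRNA kit, per the labels' protocols. The authors deposited 1 table of log2(FPKM + 1) values per RefSeq transcript. Its header says FPKM; that the scale is log2 of FPKM plus 1 follows from the back-transformed values, 100% of which have 2 decimals (tolerance 1e-06). Per the submitters' processing notes the builds were GRCm38 and mm10. Aligner, quantifier and annotation release: not given in the sources used here. Column codes with O end as only the DMSO descriptions do. Those with D were taken as DNR, since no DMSO sample was left without a column, and all directions depend on this.

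Accessions, less their version, were looked up in a RefSeq gene list for GRCm38.p6 (1013 of 1037 matched), which also gave gene coordinates, 1-based. Exons, coding sequences and printed bases came from GENCODE M21 through its RefSeq pairing (4 of the 6 listed curated transcripts had one). No protein table was used here. Transcripts with at least 1 FPKM in at least 3 of 6 samples were tested as deposited with limma 3.58.1 in R 4.3.3 (mean-variance trend, treatment alone, two-sided), and p-values were Benjamini-Hochberg adjusted over all 388, with a threshold of 0.05. Gene sums of FPKM were tested likewise. Log2 changes are on the log2(FPKM + 1) scale, which understates changes of low transcripts. The 2.49-fold rise of Zfp655 NM_001363451 is instead a ratio of mean FPKM. Depth is unknown, so no counting interval is given.

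All tested members are named, as are untested ones with a group mean of at least 0.5 FPKM or at 0 throughout 1 group and above 0 in every sample of the other, and up to 6 transcripts per companion list by adjusted p. Beyond this rule, the single-sample members below that mean are named after their values were seen. The members and lists were chosen with earlier results of these data known. Alternatives were another pseudocount (0.1), other scalings and filters, no trend, a replicate block and leaving out each sample.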

Additional observations from a re-analysis of the deposited data

Results flagged for a closer look

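The flagged results are 4 zinc finger transcripts that lay below the filter and so outside the test. All 4 were listed at 0 in every DMSO sample and above 0 in every DNR sample. Of all 1037 listed transcripts 27.7% were higher in DNR without overlap, whether or not at 0 in DMSO, against 20.8% of the members. The mean in DNR was 0.813 FPKM for Zfp810 XM_011242473, 0.64 FPKM for Zmym3 XM_006528163, 0.58 FPKM for Zfp653 XM_006510407 and 0.33 FPKM for Zfp518a XM_030251088. Conversely, the Zkscan3 and Zfp451 transcripts were listed at 0 in every DNR sample, with DMSO means of 2.16 and 1.16 FPKM.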

How the results depend on the processing

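Without the filter, 24 transcripts and 20 sums were tested in place of 4 and 3. Then 4 zinc finger transcripts were higher and 6 lower, against 23.3% and 31.2% of all 1037 transcripts. Most of the added transcript calls were of transcripts listed at 0 throughout a group. Of the unfiltered gene sums 3 were higher and 4 lower, and the share over all unfiltered sums was not taken. Requiring values above 0 in all 6 samples left 2 sums, of which 1 was lower. Shifting samples to a common median left 106 transcripts of the whole table lower, in place of 220. Gene sums were scaled by their own values, so their shift is not that of the transcripts. After the common median and quantile normalization of sums, the Zfp655 sum changed by 0.0231 and 0.0901, in place of -0.06. It did not pass in either (limma, adjusted p = 0.75 and 0.21). When 1 sample was left out in turn, 1 zinc finger transcript was higher and 3 lower, 0 gene sums were higher and 2 lower, and 166 to 167 transcripts of the table were higher and 209 to 216 lower. Over these fits Zfp655 NM_001363451 changed by 0.80 to 1.17 and NM_028298 by -0.49 to -0.34, Zmynd11 by -0.86 to -0.59 and Zfp839 by -1.42 to -1.12. Apart from NM_028298 under the common median, each of the 4 transcripts kept its direction and passed under every alternative that tested it. Passing again adds no support for any of the 4, since the listed rows were probably chosen because the groups differed. In the main fit 99.7% of all tested transcripts passed. Zfp839 moreover passed the filter through the DMSO samples alone. Zfp839 could not be tested where values above 0 in all samples were required.

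Replicate numbers are shared between the groups. Deviations of same-numbered samples correlated at -0.05, 0.05 and 0.04, and the numbers were not used as a pairing in the main fit. In rows probably chosen for a group difference, such correlations cannot show whether the samples were paired. With the replicate block, 1 zinc finger transcript was higher and 3 lower, as were 0 and 2 gene sums, and the table had 167 higher and 218 lower. Not every sample correlated best with its own number. Low FPKM limit all zinc finger values but those of Zfp655 NM_028298 and the Zfp655 sum, and depth is unknown. Zfp655 NM_001363451 was as low as 1.30 FPKM in DMSO, and Zmynd11 as low as 2.04 FPKM in DNR.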
